A study of Mus musculus with 8 samples.

Results

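Of 40770 regions of open chromatin in BV2 cells, 3593 (8.81%) had an ATAC-seq peak in all 8 libraries and lay at a gene end. Overlapping peaks of the 8 peak lists on chromosomes 1 to 19 and X were merged. A region was kept when it was at most 10 kb wide, held at least 1 bp of a peak in every list, and came within 1 kb of the start or the end of an annotated gene on GRCm38 (mm10). The regions were thus chosen by the presence of a called peak in each of the 8 lists, so that presence is a description and was not tested. They are called members below. Another 2731 regions met the same conditions but lay farther than 1 kb from any gene end, and these distal regions served for comparison. All 6324 regions open in every library are called constitutive.

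BV2 is a mouse microglial cell line. It was cultured either by itself (monoculture) or on top of GL261, a mouse glioma line (co-culture), and then held for 16 h at 21% oxygen (normoxia) or below 0.1% oxygen (hypoxia). Each of the 4 groups had 2 replicates, which the labels call biological. The protocols in the labels describe formaldehyde fixation before reoxygenation, a sort for the leukocyte surface protein CD45 or for GFP, and treatment with the Tn5 transposase. The comparisons ask how the rank of these shared open regions moves with low oxygen and with glioma contact. BV2 is an immortalised line and may differ from microglia in the brain.

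ATAC-seq marks DNA that is free enough of nucleosomes for Tn5 to insert adapters. Transcription start sites of widely used genes carry a short open stretch in nearly every cell type, and in mammals most of these sites lie in CpG islands, stretches rich in G, C and CpG. Such promoters often hold GC boxes bound by SP and KLF factors, CCAAT boxes bound by NF-Y, and the core CCGGAA bound by ETS factors, a family that includes GABP and the microglial regulator PU.1. Distal open regions are more often enhancers, whose use differs more between cell states.

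The promoters of 8 genes at members are shown because they illustrate the base composition and the ETS and GC-box sequences that the results below turn on. They do not stand for all named members. Of the 6 with the largest fall in hypoxia, only Dzip3 and Pyroxd1 held an ETS core in a listed window. Isyna1 and Ndufv3, which rose in hypoxia and are not shown, also held the core. Each line gives the 250 bases before an annotated start, 5′ to 3′, from RefSeq promoters on GRCm38.p6. Capitals mark GC boxes (GGGCGG) and ETS cores (CCGGAA) on either strand. Leprot (chr4:101647533-101647782, plus strand) was near the top of every list. Dzip3 (chr16:48994113-48994362, minus strand) and Pyroxd1 (chr6:142345447-142345696, plus strand) ranked lower in hypoxia, and Fzd7 (chr1:59481897-59482146, plus strand) and Ptbp1 (chr10:79854182-79854431, plus strand) ranked higher. Skap2 (chr6:52012550-52012799, minus strand) ranked higher in co-culture, and Clec4a1 (chr6:122921598-122921847, plus strand) and Olfr110 (chr17:37492218-37492467, plus strand) ranked lower.
Leprot: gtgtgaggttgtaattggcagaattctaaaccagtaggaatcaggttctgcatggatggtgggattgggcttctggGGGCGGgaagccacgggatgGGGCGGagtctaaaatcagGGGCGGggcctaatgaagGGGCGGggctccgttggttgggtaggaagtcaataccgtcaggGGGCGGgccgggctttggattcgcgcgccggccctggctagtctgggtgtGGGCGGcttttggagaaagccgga
Dzip3: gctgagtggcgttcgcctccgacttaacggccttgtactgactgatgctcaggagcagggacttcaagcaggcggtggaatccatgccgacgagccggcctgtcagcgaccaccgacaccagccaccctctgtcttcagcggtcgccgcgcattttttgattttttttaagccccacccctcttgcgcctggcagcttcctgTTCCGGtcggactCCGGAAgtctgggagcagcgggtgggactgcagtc
Pyroxd1: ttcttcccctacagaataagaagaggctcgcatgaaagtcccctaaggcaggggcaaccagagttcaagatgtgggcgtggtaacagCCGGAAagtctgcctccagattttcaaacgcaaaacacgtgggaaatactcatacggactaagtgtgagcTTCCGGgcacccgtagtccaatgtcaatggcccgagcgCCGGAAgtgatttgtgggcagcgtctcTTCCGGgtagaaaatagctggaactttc
Fzd7: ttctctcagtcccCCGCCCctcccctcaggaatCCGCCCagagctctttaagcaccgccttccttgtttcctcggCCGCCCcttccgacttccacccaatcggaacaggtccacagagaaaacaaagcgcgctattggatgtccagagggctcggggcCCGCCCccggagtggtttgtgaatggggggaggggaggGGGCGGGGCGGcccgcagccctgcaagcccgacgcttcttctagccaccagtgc
Ptbp1: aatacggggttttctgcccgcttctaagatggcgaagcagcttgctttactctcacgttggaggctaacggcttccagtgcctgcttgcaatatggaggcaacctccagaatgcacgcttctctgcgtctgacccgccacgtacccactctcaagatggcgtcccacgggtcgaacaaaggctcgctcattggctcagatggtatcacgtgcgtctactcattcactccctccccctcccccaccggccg
Skap2: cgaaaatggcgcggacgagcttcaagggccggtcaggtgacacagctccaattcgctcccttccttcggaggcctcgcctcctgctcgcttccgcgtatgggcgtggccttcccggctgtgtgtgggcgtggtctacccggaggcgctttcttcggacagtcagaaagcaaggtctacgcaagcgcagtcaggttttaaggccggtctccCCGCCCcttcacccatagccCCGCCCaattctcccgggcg
Clec4a1: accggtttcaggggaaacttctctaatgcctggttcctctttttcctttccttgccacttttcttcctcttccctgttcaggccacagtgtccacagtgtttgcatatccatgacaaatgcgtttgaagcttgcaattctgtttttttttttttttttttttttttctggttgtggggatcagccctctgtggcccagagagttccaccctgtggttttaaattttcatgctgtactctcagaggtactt
Olfr110: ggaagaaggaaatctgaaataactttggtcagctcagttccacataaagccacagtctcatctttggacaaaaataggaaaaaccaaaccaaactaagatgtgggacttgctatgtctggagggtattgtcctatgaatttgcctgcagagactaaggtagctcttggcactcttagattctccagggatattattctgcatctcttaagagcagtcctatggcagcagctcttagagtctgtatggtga
The Leprot window held 6 GC boxes and no ETS core, and the Fzd7 window also held 6 GC boxes. In Pyroxd1 the 4 ETS cores began 28, 55, 93 and 163 bases before the start, and in Dzip3 the 2 cores began 35 and 48 bases before it. Dzip3 shares its region with Cip2a, whose start faces the other way and whose own window holds the same 2 cores. Clec4a1 had 2 CpGs in 250 bases and Olfr110 had 0, against 24 in Skap2.

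The libraries differed in depth and list length. The lists held 9910 to 29658 peaks, and the typical background coverage that the deposited values imply ran from 0.758 to 1.45 fragments per position. Normoxic monoculture stood apart, with 13333 and 9910 peaks where the other 6 lists held at least 21633. Among members, the summit of the best peak held a median of 26 and 27 fragments in normoxic monoculture, 48 and 53 in hypoxic monoculture, 51 and 65 in normoxic co-culture and 67 and 61 in hypoxic co-culture. Across members, the ranks of replicates correlated at a Spearman coefficient of 0.781 in normoxic monoculture and of 0.874 to 0.916 in the other groups. Pairs of libraries from different groups gave 0.548 to 0.836. Of 12 microglia and macrophage marker genes, 5 and 3 had a peak over the gene or within 1 kb in normoxic monoculture and 8 to 10 in the other libraries. Aif1 and C1qa, which mark microglia and macrophages, had none in any list, and Ptprc, which encodes CD45, was the only marker at a member.

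The more libraries shared a region, the more often it lay at a gene end. The share within 1 kb rose from 15.4% of the 10870 regions in 1 list to 26.2% in 4 lists, 46.6% in 7 lists and 56.8% in all 8, against 30.6% of all regions. Just outside the rule lay 1802 gene-end regions with a peak in 7 of 8 lists, of which 1219 were missing only from normoxic monoculture replicate 2 and 439 only from replicate 1. Most of them were thus kept out by the 2 shortest lists. Just inside it, the lowest −log10 q of a member was 2.06, and 26 members had a lowest value below 3. A further 46 gene-end regions were open in every list but wider than 10 kb.

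**Figure D1:**
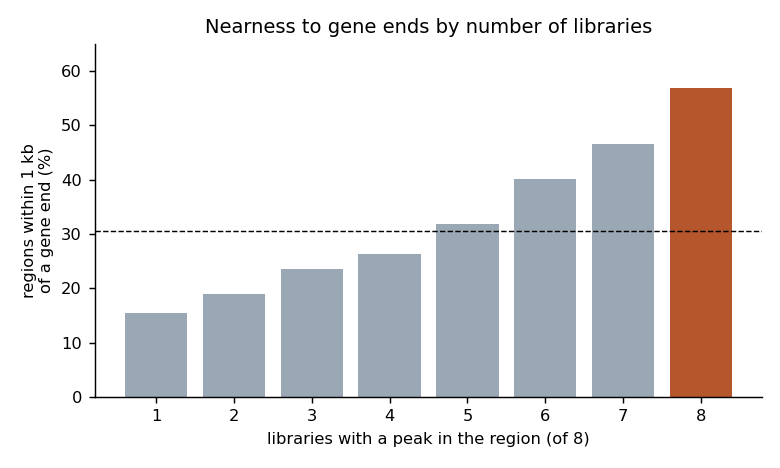
Share of merged regions within 1 kb of a gene end (y axis, percent) by the number of libraries with a peak in the region (x axis). The share climbs at each step from 15.4% to 56.8% (the members, in orange), and the dashed line marks 30.6% for all regions.

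Members were compact and centred just upstream of starts. Their median width was 1023 bp (quartiles 874 and 1218 bp), and 3424 of them (95.3%) had a single peak in every library. The nearest gene was protein-coding for 2984 members (83.1%) and a long noncoding RNA for 460 (12.8%). Together the members lay at the ends of 4822 genes, among them 3800 of 21627 annotated protein-coding genes (17.6%). For 1107 members (30.8%), 2 genes had an end within 1 kb. The summit lay within 100 bp of a gene end in 52.9% and within 250 bp in 76.7%. Of the 3494 members on chromosomes covered by the RefSeq start table, 2790 (79.9%) had a listed start within 1 kb, with the summit at a median of -59 bp from it (quartiles -130.5 and 6.5 bp). The summit was upstream of that start in 72.9%. For 976 members, 2 or more starts lay within 1 kb. The summit moved by a median of 134 bp between its outermost positions over the 8 libraries, against 147 bp at distal regions.

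The promoters at members had the composition of CpG islands. Of 32619 RefSeq promoter windows (250 bases before to 50 after a start), 3755 windows of 3325 genes had their start inside a member. Their median GC content was 62.0%, against 53.0% over all windows. The ratio of observed to expected CpG was 0.817 against 0.387 in the median, and reached 0.6, a usual limit for a CpG island, in 82.2% against 36.04%. Searched on both strands, the GC box GGGCGG was in 70.4% of member windows against 35.9% of all, and the CCAAT box in 47.2% against 37.6%. The ETS core CCGGAA was in 35.1% against 15.0%, and the NRF1 sequence, bound by a regulator of mitochondrial genes, in 12.5% against 4.63%. The TATA box (TATAAA) went the other way, with 4.95% against 13.7%, as did the AP-1 site (TGANTCA), with 4.74% against 7.85%. These contrasts were narrower among windows of protein-coding genes alone. There the median GC content was 62.0% at members against 56.7% over all, and the CpG ratio reached 0.6 in 83.7% against 48.1%. The GC box was in 71.5% against 46.7%, and the ETS core in 36.3% against 18.9%. GC boxes lie in GC-rich sequence by their letters, so their share and the GC content are not separate observations.

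The share of genes with a member differed between gene lists, and no test of these shares was made. Against 17.6% of all protein-coding genes, a member lay at 27 of 69 translation initiation and elongation factor genes (39.1%), 31 of 86 nuclear-encoded respiratory chain genes (36.05%) and 27 of 78 mitochondrial ribosomal protein genes (34.6%). It lay at 12 of 39 proteasome genes (30.8%), 9 of 34 spliceosome genes (26.5%) and 20 of 81 cytosolic ribosomal protein genes (24.7%). Microglial and macrophage transcription factors had a member at 5 of 24 genes (20.8%, among them Stat3, Etv6, Elf1 and Maf), and surface and signature genes of these cells at 3 of 30 (10.0%, among them Ptprc and Fcgr2b). Oxygen sensing genes had one at 6 of 16 (37.5%), glycolysis and glucose transport genes at 6 of 22 (27.3%), other targets of hypoxia-inducible factors at 9 of 25, and interferon and antigen presentation genes at 8 of 34 (23.5%). Glioma and glial, neuronal, lymphocyte and keratin lists, with 20, 15, 15 and 104 genes, had no member, and the 1144 olfactory and taste receptor genes had one at 6. These lists were chosen with earlier results of the same lists known, so the counts are descriptive.

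Absence from the members did not mean a closed gene end. Egln1, the main oxygen-sensing prolyl hydroxylase, and Gapdh, a glycolytic enzyme, each had a peak at a gene end in 7 of 8 lists, missing only normoxic monoculture replicate 2. Vegfa, the angiogenic growth factor, had one in 5 lists. Hif1a, the hypoxia-inducible transcription factor subunit, and Spi1, which encodes PU.1, each had one in 2 lists, and Actb, which encodes beta-actin, in 1. Csf1r, the receptor for the growth factors CSF1 and IL-34, and Aif1 had none at their ends.

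The strength of a region was read from −log10 p of its best peak as a percentile rank (0 to 100) among the 6324 constitutive regions of the same library, since values from lists of different length cannot be compared directly. The 10 members with the highest lowest position in the deposited lists were named, a choice that by itself places them at the top in every library. The first was a region at Gm10222 and Gm10925 on chromosome 1 (chr1:24612311-24613639), with rank 100 in all 8 libraries. These pseudogenes are nuclear copies of mitochondrial sequence, so reads of mitochondrial DNA cannot be told apart from reads of the nuclear copy there. The others were at Camta1, a transcription activator that binds calmodulin, Acadm, an enzyme of fatty acid oxidation, Opn3, an opsin, Leprot, which overlaps the leptin receptor locus, Setd3 with Ccnk, Pdcd10 with Serpini1, Qdpr, an enzyme of pterin recycling, Zbtb20, a zinc-finger repressor, and Fam160a2. Camta1 ranked from 99.8 to 99.9 over the libraries and Leprot from 99.7 to 99.9. Over all constitutive regions, 217 stayed above the 90th percentile in all 8 libraries, and 194 of them (89.4%) were members. Members made up 56.8% of the regions ranked.

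Members ranked higher in co-culture than in monoculture. Their median rank was 53.4 and 53.6 in normoxic monoculture and 50.2 and 48.3 in hypoxic monoculture. In co-culture it was 58.5 and 62.2 in normoxia and 60.1 and 64.2 in hypoxia. All 4 co-culture libraries thus lay above all 4 monoculture libraries, by a mean of 9.87 points, where the SD between replicates was 2.05 points. The two-sided exact permutation test within oxygen levels gave p = 0.0556, the smallest of its 36 relabellings and 0.333 after Benjamini-Hochberg adjustment over 6 tests, so this design cannot reach 0.05. The same pattern stood at the extremes of the ranking, where members took 66.5% to 72.2% of the top 10% in monoculture and 80.7% to 89.7% in co-culture. Of the bottom 10% they made up 50.6% to 67.6% in monoculture and 28.3% to 40.7% in co-culture.

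For hypoxia against normoxia the median member rank differed by -1.25 points (two-sided exact permutation p = 0.611). This averages moves of opposite sign, from a mean of 53.5 to 49.3 in monoculture and from 60.4 to 62.2 in co-culture, an interaction of 6.02 points (exact permutation p = 0.111). With percentiles taken within whole lists, whose length differs most between normoxic monoculture and the rest, the oxygen difference was 4.70 points. On that scale the mean rose from 70.1 to 80.5 in monoculture and fell from 86.4 to 85.4 in co-culture, an interaction of -11.3. With fold enrichment in place of −log10 p the oxygen difference was 0.684. Because ranks are relative, a rise of members is a fall of distal regions in the same library. The distal median was 45.8 to 51.5 in monoculture and 33.8 to 40.3 in co-culture. Glioma and glial marker genes with a peak over the gene numbered 1, 1, 1 and 3 of 14 in monoculture and 5, 2, 8 and 5 in co-culture, with Olig1, Olig2, Sox10, Egfr, Fabp7 and Col1a2 at 0 in every list. Fragments at member summits were also more numerous in co-culture, as given above. The part of either in the rank shift was not tested. In sorted bulk cells, a change in the share of cells with an open region and a change in its openness per cell cannot be told apart.

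**Figure D2:**
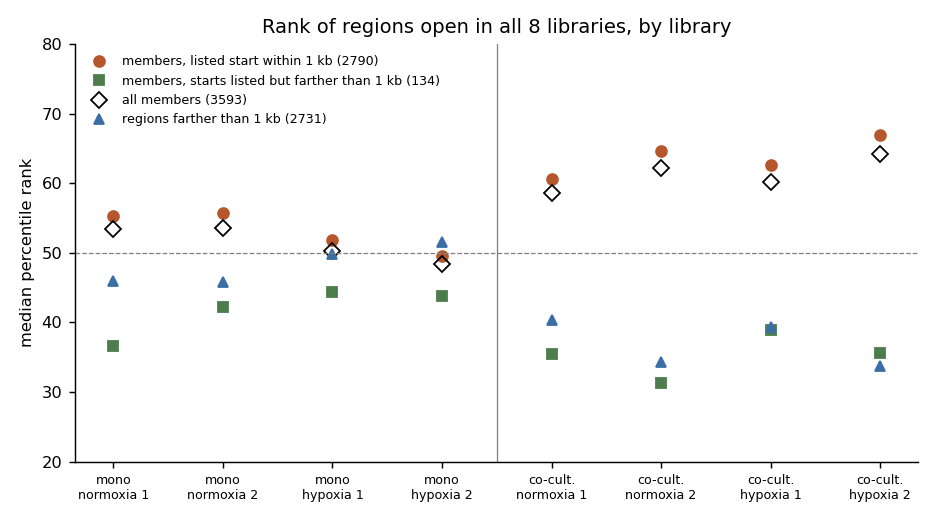
Median percentile rank (y axis, 0 to 100, among the 6324 constitutive regions) in each of the 8 libraries (x axis). Diamonds show all members, which lie at 48.3 to 53.6 in monoculture and 58.5 to 64.2 in co-culture. Circles show members with a listed start within 1 kb, squares members whose genes all have listed starts farther away, and triangles distal regions.

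The rise was seen at members near starts, and the median shift of members at the far end of genes had the other sign. The RefSeq start table is not complete, so 3 classes were kept apart. The 2790 members with a listed start within 1 kb had a median culture shift of 6.50 points. Of these, 253 (9.07%) were called higher and 49 (1.76%) lower in co-culture, against 5.46% and 6.14% of all constitutive regions. For 134 members all genes nearby had listed starts, but none within 1 kb, which places the member at the far end of the gene. Their median culture shift was -5.01 points, with 1 (0.746%) called higher and 10 (7.46%) lower, against the same 5.46% and 6.14%. Their median rank was 36.7 to 44.3 in monoculture and 31.3 to 38.9 in co-culture. The median shift of distal regions was -8.66. The remaining 570 had no listed start within 1 kb and a nearby gene without a listed start. Their median culture shift was 3.51. The difference between these classes has no test of its own.

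In co-culture 305 members (8.49%) were called higher and 75 (2.09%) lower by limma with Benjamini-Hochberg adjustment over all 6324 regions at 0.05. The background was 5.46% of all constitutive regions called higher and 6.14% lower. Distal regions had 40 higher and 313 lower. In 303 members all 4 co-culture libraries ranked above all 4 monoculture libraries, and in 68 below, against 5.61% and 6.48% of all constitutive regions. The median shift was 5.79 points over all members and 29.1 points in size among those called higher. Within one oxygen level, 5 members were called higher and 0 lower in normoxia (0.0791% and 0% of all regions called), where 448 and 106 had an unadjusted p below 0.05. In hypoxia 194 were called higher and 59 lower (3.46% and 3.75%). Whether the culture shift differs between oxygen levels is the interaction reported below.

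**Figure D3:**
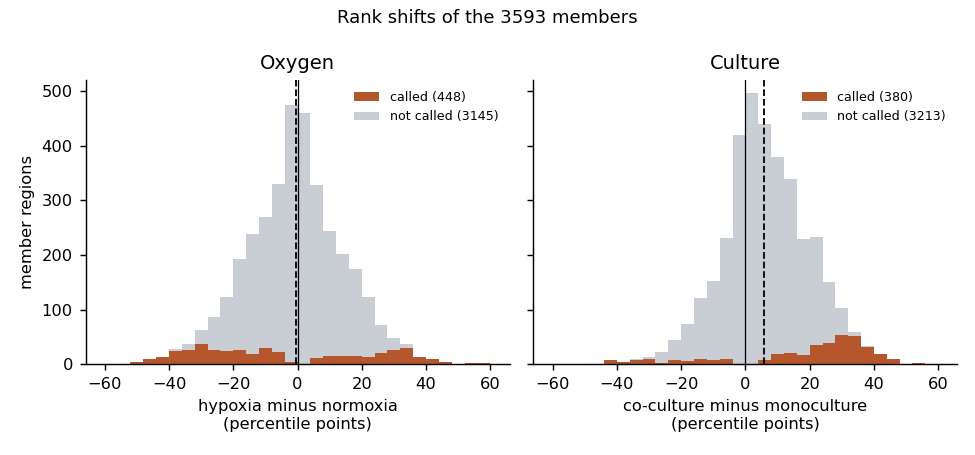
Number of members (y axis) by rank shift in percentile points (x axis), for hypoxia minus normoxia on the left and co-culture minus monoculture on the right. Orange marks members called by limma at an adjusted p below 0.05, and the dashed line marks the median, at -0.54 points for oxygen and 5.79 for culture.

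These calls rested on single libraries and on the scale. Ranks taken among the members alone, which remove the shift of members as a whole, left 51 higher and 96 lower, or 34.7% of calls higher against 80.3%. Percentiles within whole lists gave 469 and 12, or 97.5% higher, where the median of all constitutive regions itself moved by 3.84 points. Fold enrichment gave 0 calls in both directions by limma, with 506 members at an unadjusted p below 0.05 and the same sign in 98.0% of members called higher and 98.7% of those called lower. No member was called by limma once either hypoxic monoculture library, or the second normoxic co-culture library, was left out, where 936, 772 and 933 members had an unadjusted p below 0.05. Leaving out the first normoxic co-culture library gave 0 higher and 2 lower. Without the first or the second hypoxic co-culture library the calls were 88 and 39, or 4 and 3. Without the first normoxic monoculture library they were 565 and 117. Every called member kept its sign in each of these fits that leave out a library. As these fits reuse libraries in which the members were called, this was largely set in advance.

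The 6 members with the largest rise in co-culture lay at Ccdc126, Atad2, 2010320M18Rik with Pik3r2, Brat1, Hexim1 and Skap2. Ccdc126 on chromosome 6 (chr6:49318990-49319671) ranked at 18.2 and 21.3 in normoxic monoculture, 29.6 and 17.4 in hypoxic monoculture, 69.8 and 48.3 in normoxic co-culture and 93.4 and 90.6 in hypoxic co-culture. The rise was 53.9 points (SE 8.55, adjusted p = 0.0218, limma), and its hypoxic co-culture libraries were the highest. Atad2, a bromodomain ATPase linked to cell division, ranked at 8.53 and 31.2 in normoxic monoculture, 13.7 and 6.45 in hypoxic monoculture, 74.8 and 59.0 in normoxic co-culture and 56.2 and 80.6 in hypoxic co-culture. Its rise was 52.7 points (SE 9.28, adjusted p = 0.0218). Hexim1, which holds the elongation factor P-TEFb inactive, ranked at 12.4 and 30.3 in normoxic monoculture, 18.5 and 34.2 in hypoxic monoculture, 62.0 and 61.5 in normoxic co-culture and 72.0 and 89.4 in hypoxic co-culture. It rose by 47.4 points (SE 8.86, adjusted p = 0.024), with co-culture hypoxia replicate 2 the highest. Skap2, an adaptor of Src-family kinases in immune cells, ranked at 19.7 and 16.5 in normoxic monoculture, 35.2 and 9.57 in hypoxic monoculture, 56.9 and 54.8 in normoxic co-culture and 82.1 and 76.2 in hypoxic co-culture and rose by 47.3 points (SE 8.46, adjusted p = 0.0218). At Brat1, which acts in the DNA damage response, monoculture normoxia replicate 2 stood at 66.5 and the other monoculture libraries between 13.8 and 39.5. All 4 co-culture libraries lay between 78.7 and 90.1. The region between 2010320M18Rik and Pik3r2, a regulatory subunit of PI3 kinase, rose by 51.1 points.

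The 6 members with the largest fall lay at the immunoglobulin pseudogene Ighv8-10, at Gm39669 with Slc16a14, at Olfr110, Clec4a1, the T-cell receptor segment Trbv1 in Tcrb, and Gm39173. Ighv8-10 on chromosome 12 (chr12:115518651-115519839) ranked at 67.1 and 58.7 in normoxic monoculture, 56.2 and 73.9 in hypoxic monoculture, 14.4 and 26.0 in normoxic co-culture and 1.87 and 6.40 in hypoxic co-culture. It fell by 51.8 points (SE 7.78, adjusted p = 0.0199, limma). Clec4a1, a C-type lectin receptor of myeloid cells, ranked at 75.1 and 45.0 in normoxic monoculture, 63.9 and 73.6 in hypoxic monoculture, 14.6 and 31.3 in normoxic co-culture and 28.9 and 14.0 in hypoxic co-culture. It fell by 42.2 points (SE 9.52, adjusted p = 0.0297). Olfr110 ranked at 46.7 and 88.6 in normoxic monoculture, 65.3 and 70.8 in hypoxic monoculture, 30.2 and 26.5 in normoxic co-culture and 30.9 and 8.54 in hypoxic co-culture, with monoculture normoxia replicate 2 the highest and a shift of -43.8 points. Promoter composition was also compared. Of 243 called higher in co-culture whose closest start had a window, 94.2% reached the CpG ratio of 0.6 and 84.4% held a GC box. Of 41 called lower, 31.7% and 39.0% did, against 81.3% and 71.4% of all 2678 members with a start inside. By GC content of the window, the median culture shift was 2.16 points below 55%, 7.02 from 55 to 65% and 8.45 from 65% up. The part of base composition in this shift was not tested.

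**Figure D4:**
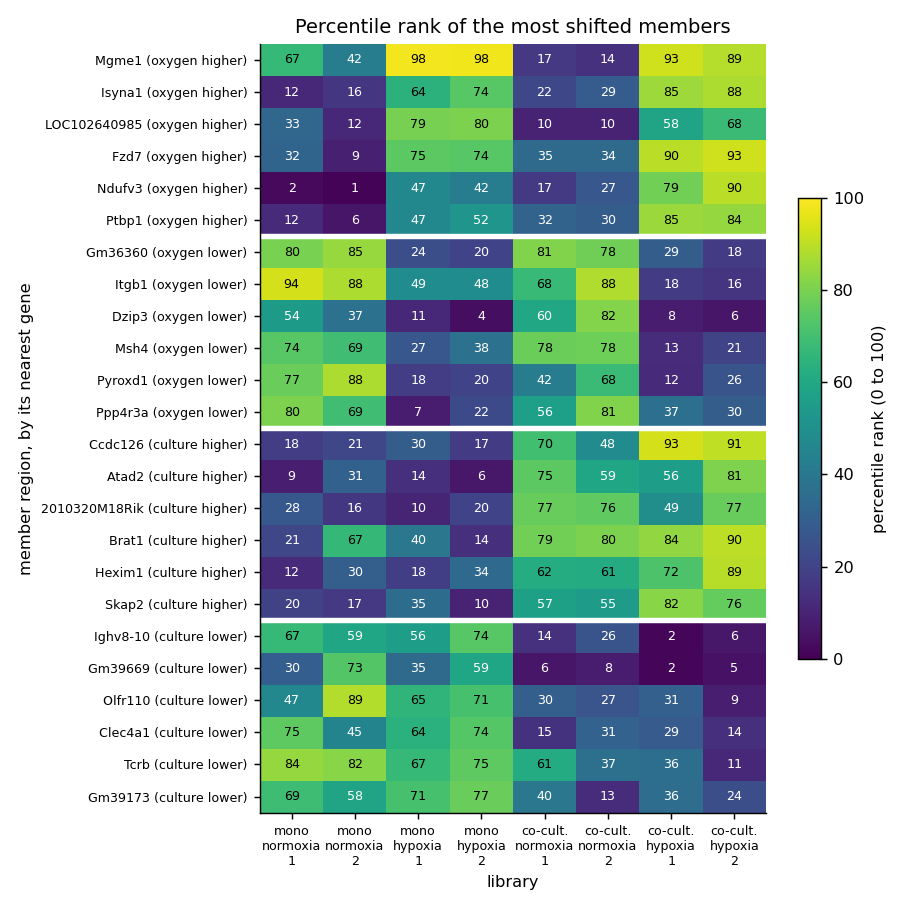
Percentile rank (colour and printed value, 0 to 100) of the 24 members with the largest called shifts without overlap between levels (rows, by nearest gene) in each library (columns). From top to bottom the blocks are higher in hypoxia, lower in hypoxia, higher in co-culture and lower in co-culture.

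In hypoxia more members were called lower than higher on this scale, a split that turned with percentiles within whole lists. Both contrasts use the same 8 libraries. By limma, 178 members (4.95%) were called higher and 270 (7.51%) lower in hypoxia, where 5.08% and 6.29% of all constitutive regions were called. The share called higher was near the background. Groups did not overlap in 160 members in the higher and 335 in the lower direction, against 5.14% and 6.96% of all regions. The median shift of all members was -0.54 points. Within monoculture 37 were called higher and 30 lower (0.917% and 0.585% of all regions), and within co-culture 69 and 82 (1.58% and 2.21%). Leaving out the first hypoxic monoculture or the second normoxic co-culture library left no member called, with 857 and 899 at an unadjusted p below 0.05. Higher and lower calls were 51 and 78 without the second hypoxic monoculture library, and 89 and 124 without the first normoxic co-culture library. Without the first or the second hypoxic co-culture library they were 62 and 117, or 42 and 111, and without the first normoxic monoculture library 369 and 389. Fold enrichment gave 0 calls, with 618 at an unadjusted p below 0.05, and percentiles within whole lists gave 201 and 48, or 80.7% of calls higher against 39.7%, where the median of all regions moved by 2.93 points. In ranks among the members alone, 270 rose and 319 fell. Peak names carry the code V12 in every normoxic and V22 in every hypoxic list. Its meaning is not given in the sources used here, and it cannot be told apart from oxygen.

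The 6 members with the largest rise in hypoxia lay at Mgme1, Isyna1, LOC102640985, Fzd7, Ndufv3 with Wdr4, and Ptbp1. Isyna1 on chromosome 8 (chr8:70593910-70594951), which makes inositol phosphate from glucose 6-phosphate, ranked at 11.7 and 16.0 in normoxic monoculture, 21.7 and 29.0 in normoxic co-culture, 64.1 and 74.0 in hypoxic monoculture and 85.2 and 87.5 in hypoxic co-culture. The rise was 58.1 points (SE 7.87, adjusted p = 0.00922, limma). Fzd7, a Wnt receptor, ranked at 32.4 and 8.95 in normoxic monoculture, 34.8 and 34.4 in normoxic co-culture, 74.9 and 74.1 in hypoxic monoculture and 89.8 and 92.9 in hypoxic co-culture and rose by 55.3 points (SE 8.35, adjusted p = 0.00922). At Ndufv3, a subunit of respiratory complex I whose region also serves Wdr4, the ranks were 2.43 and 1.06 in normoxic monoculture, 16.8 and 27.0 in normoxic co-culture, 46.6 and 42.3 in hypoxic monoculture and 78.6 and 89.6 in hypoxic co-culture. It rose by 52.5 points in hypoxia (SE 7.29, adjusted p = 0.00922) and by 29.9 points in co-culture (SE 7.29, adjusted p = 0.0346). Ptbp1, a splicing regulator known for its effect on pyruvate kinase transcripts, ranked at 12.4 and 6.21 in normoxic monoculture, 31.9 and 29.6 in normoxic co-culture, 46.6 and 52.2 in hypoxic monoculture and 84.8 and 84.4 in hypoxic co-culture. Its rise was 47.0 points (SE 7.46, adjusted p = 0.0106). The largest rise, 59.5 points (SE 7.39, adjusted p = 0.00922), was at Mgme1, a nuclease of mitochondrial DNA, where the summit lay 9200.5 bp from the nearest listed start. It ranked at 67.1 and 41.9 in normoxic monoculture, 16.6 and 14.3 in normoxic co-culture, 98.3 and 97.9 in hypoxic monoculture and 92.8 and 88.7 in hypoxic co-culture. The noncoding RNA LOC102640985 rose by 55.4 points.

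The 6 members with the largest fall in hypoxia lay at Gm36360 with Exo1, Itgb1, Dzip3 with Cip2a, Msh4, Pyroxd1 and Ppp4r3a. The region shared by Gm36360 and Exo1, an exonuclease of mismatch repair, ranked at 79.8 and 84.7 in normoxic monoculture, 81.0 and 78.4 in normoxic co-culture, 24.0 and 20.1 in hypoxic monoculture and 29.4 and 17.8 in hypoxic co-culture. Its shift was -58.2 points (SE 7.89, adjusted p = 0.00922, limma). Itgb1 on chromosome 8 (chr8:128685118-128686520), the beta-1 integrin chain, ranked at 93.5 and 87.9 in normoxic monoculture, 67.7 and 87.9 in normoxic co-culture, 48.6 and 48.5 in hypoxic monoculture and 17.6 and 15.5 in hypoxic co-culture, a shift of -51.7 points (SE 7.92, adjusted p = 0.00922). The region of Dzip3, a ubiquitin ligase, and Cip2a, an inhibitor of the phosphatase PP2A, ranked at 54.3 and 37.5 in normoxic monoculture, 59.5 and 81.6 in normoxic co-culture, 11.1 and 3.84 in hypoxic monoculture and 7.59 and 6.12 in hypoxic co-culture. All 4 hypoxic libraries were at 11.1 or below, and the shift was -51.1 points (SE 7.78, adjusted p = 0.00922). Pyroxd1, an oxidoreductase, ranked at 77.2 and 87.9 in normoxic monoculture, 42.2 and 68.1 in normoxic co-culture, 18.3 and 20.2 in hypoxic monoculture and 12.3 and 26.1 in hypoxic co-culture, with a shift of -49.6 points (SE 8.85, adjusted p = 0.0128). Msh4, a meiotic mismatch repair homologue, shifted by -50.2 points and Ppp4r3a, a regulatory subunit of phosphatase 4, by -47.8. Msh4 kept the sign with fold enrichment but with a shift of -3.38 points (adjusted p = 0.725, limma). Absence of overlap between hypoxic and normoxic libraries was a condition for naming these members and those above.

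The ETS core was in the promoters of 2 of the 6 members with the largest fall in hypoxia, Dzip3 with Cip2a and Pyroxd1. The listed windows of Gm36360, Itgb1, Msh4 and Ppp4r3a held none, and those of Isyna1 and Ndufv3, which rose, held 1 each. Taking the closest start of each of 2678 members, the core was in 114 of 212 members called lower in hypoxia (53.8%) and in 33 of 134 called higher (24.6%), against 33.9% overall. Turned round, 12.6% of the 908 members with the core were called lower and 3.63% higher. Of the 1770 without it, 5.54% were called lower and 5.71% higher. These shares depended on the libraries and the scale. The share called lower was 0% with and without the core once the first hypoxic monoculture or the second normoxic co-culture library was left out, and with fold enrichment. Without the second hypoxic monoculture library it was 3.41% with the core and 1.75% without, and without the first normoxic co-culture library 5.73% and 2.66%. Without the first or the second hypoxic co-culture library it was 4.96% and 2.37%, or 5.29% and 2.37%. Percentiles within whole lists gave 2.31% and 0.96%. On that scale 3.74% of members with the core and 6.78% of those without it were called higher. The median shift was 0.57 points with the core and 3.12 without. Library by library, the median rank of members with the core minus that of members without it was 0.423 and 2.20 in normoxic monoculture and -1.16 and 1.41 in normoxic co-culture. In hypoxia the difference was -10.3 and -7.26 in monoculture and -5.85 and -2.62 in co-culture, below every normoxic value.

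The same direction was seen in each class of base composition. Below 55% GC the share called lower was 13.5% with the core and 6.29% without, from 55 to 65% GC it was 13.8% and 5.94%, and from 65% up it was 10.2% and 4.61%. The median oxygen shift was -3.28 points with the core and 0.56 without. In percentile points, the difference between these medians ran from -2.55 to -4.35 over the other fits, and on normal scores or log2 values it was also below 0. The PU.1 sequence GAGGAAGT, another member of the family, was in 12 of 212 called lower (5.66%) and 2 of 134 called higher (1.49%), against 4.03% overall. The core of the hypoxia response element (ACGTG) was in 30.2% of members called lower and 29.1% of those called higher, against 29.6% overall. GC boxes were in 84.3% of members called higher and 59.9% of those called lower, against 71.4%. ETS was singled out from 12 sequences after their values were seen, and the difference between members with and without it has no test of its own. A match is a run of letters and not a bound site.

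**Figure D5:**
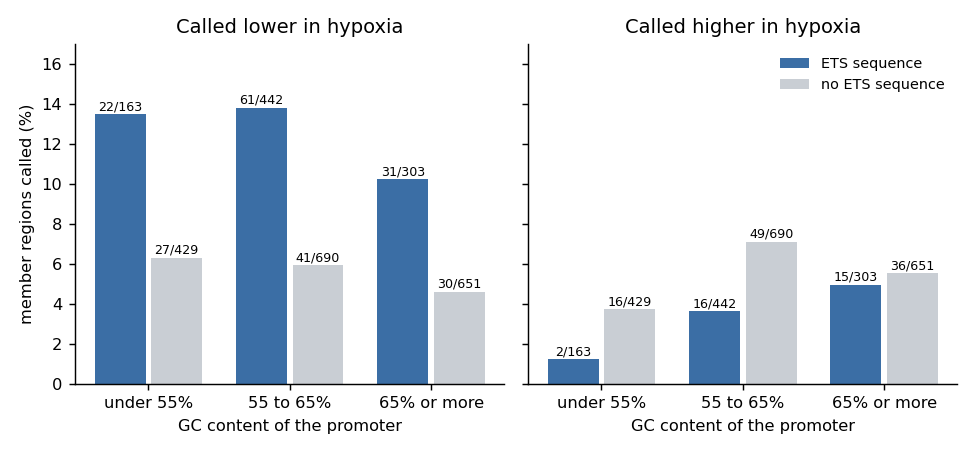
Percent of members called lower (left) and higher (right) in hypoxia (y axis) by GC content of the closest promoter window (x axis), for members with the ETS core CCGGAA (blue) and without it (grey). Counts above the bars give called over all members of the class. In all 3 classes the blue bar is the higher one on the left (10.2% to 13.8%) and the lower one on the right.

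No member was called for the interaction, that is for an oxygen shift that differs between cultures (0% of all regions in either direction). By limma 254 members had a positive and 180 a negative interaction at an unadjusted p below 0.05, and the lowest adjusted p was 0.13. Without monoculture normoxia replicate 1 the calls were 14 and 55. Stat3, the transcription factor of cytokine signalling, had an interaction of 34.4 points with an adjusted p of 0.3. It ranked at 71.1 and 58.1 in normoxic monoculture, 63.1 and 58.5 in normoxic co-culture, 66.4 and 65.5 in hypoxic monoculture and 96.1 and 96.9 in hypoxic co-culture. Both hypoxic co-culture libraries stood apart from the other 6, and the oxygen shift was 18.5 points (SE 5.12, adjusted p = 0.0444). The same held at the promoter shared by Zmat5 and Uqcr10, a complex III subunit, with ranks of 4.01 and 1.92 in normoxic monoculture, 2.095 and 10.4 in normoxic co-culture, 5.77 and 6.29 in hypoxic monoculture and 62.8 and 60.4 in hypoxic co-culture. Its interaction was 52.3 points with an adjusted p of 0.2 by limma.

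The counts for gene lists that follow are set against all constitutive regions, of which 5.08% were called higher and 6.29% lower in hypoxia, and 5.46% higher and 6.14% lower in co-culture. In lists this short a single call moves the share widely, so a low count is read as no result about the list. Of the 6 oxygen sensing genes at members, 1 was called. Hif1an, the asparaginyl hydroxylase that curbs HIF activity, ranked at 60.4 and 61.0 in normoxic monoculture, 13.5 and 37.5 in hypoxic monoculture, 72.9 and 64.3 in normoxic co-culture and 83.8 and 84.5 in hypoxic co-culture. It was 33.3 points higher in co-culture (SE 8.09, adjusted p = 0.0343, limma), with both hypoxic monoculture libraries the lowest. Eloc, a subunit of the VHL ubiquitin ligase, ranked at 87.9 to 94.8 in all libraries, and it was not called, nor were its partners Rbx1 and Elob or the ligase Siah2. The median shift of the 6 genes was 10.2 points for hypoxia against normoxia and 23.6 for co-culture against monoculture, against -0.54 and 5.79 over all members. Egln2, a prolyl hydroxylase, ranked between 22.4 and 57.9 with overlapping groups.

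Among the 6 glycolysis and glucose transport genes, Pkm, Slc2a1 and the region of Pfkm were called. Pkm, pyruvate kinase, ranked at 22.6 and 10.2 in normoxic monoculture, 70.0 and 45.3 in normoxic co-culture, 58.2 and 60.2 in hypoxic monoculture and 89.1 and 84.7 in hypoxic co-culture. Levels overlapped in both contrasts. It rose by 35.998 points in hypoxia (SE 8.68, adjusted p = 0.0303, limma) and by 34.5 in co-culture (SE 8.68, adjusted p = 0.0358). Slc2a1, the glucose transporter GLUT1, ranked at 34.2 and 25.8 in normoxic monoculture, 20.2 and 25.8 in hypoxic monoculture, 51.7 and 48.2 in normoxic co-culture and 63.8 and 71.7 in hypoxic co-culture. Its rise in co-culture was 32.3 points (SE 7.57, adjusted p = 0.0312), and its oxygen shift was 5.41 (SE 7.57, adjusted p = 0.666). The promoter shared by Senp1, a SUMO protease, and Pfkm, a phosphofructokinase, ranked at 43.0 and 35.9 in normoxic monoculture, 22.9 and 42.6 in normoxic co-culture, 0.0949 and 4.50 in hypoxic monoculture and 9.55 and 21.9 in hypoxic co-culture. Its oxygen shift was -27.1 points (SE 6.61, adjusted p = 0.0316). Eno1, enolase, was at 45.3 to 95.6 and was not called. Of 9 other HIF targets, 1 was called, higher in hypoxia, where 5.08% of all regions were. It was Kdm4b, a histone demethylase, which ranked at 84.7 and 73.5 in normoxic monoculture, 91.2 and 89.9 in normoxic co-culture, 95.1 and 92.8 in hypoxic monoculture and 98.3 and 97.3 in hypoxic co-culture and rose by 11.1 points (SE 2.34, adjusted p = 0.0208). Ankrd37 and Bnip3, both induced by HIF, ranked at 95.6 to 98.8 and 92.0 to 98.4 in all libraries, which leaves little room for a rank to rise.

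Of 33 member regions at 31 respiratory chain genes, 4 were called higher in hypoxia (Ndufv3, Ndufa11, Uqcr10 and Uqcrq) and 5 lower (Cox7c, Atp5j, Ndufb5, Atp5j2 and Ndufa4), where 5.08% and 6.29% of all regions were called. Their median oxygen shift was -4.31 points, against -0.54 over all members. Cox7c, a subunit of cytochrome oxidase, ranked at 95.6 and 92.7 in normoxic monoculture, 91.1 and 89.5 in normoxic co-culture, 73.5 and 81.5 in hypoxic monoculture and 69.5 and 65.3 in hypoxic co-culture and shifted by -19.8 points (SE 2.97, adjusted p = 0.00922, limma), but by -1.13 points with fold enrichment (adjusted p = 0.88). Atp5j shares its region with Gabpa, the DNA-binding subunit of the ETS factor GABP, and the region, named after its values were seen, shifted by -32.3 points. In co-culture 4 were called higher, where 5.46% of all regions were, with a median shift of 11.3 points against 5.79 over all members.

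Among 27 member regions at mitochondrial ribosomal protein genes, 2 were called higher and 2 lower in hypoxia, near the 5.08% and 6.29% of all regions. Mrps30 ranked at 72.2 and 76.2 in normoxic monoculture, 64.3 and 77.7 in normoxic co-culture, 14.6 and 27.4 in hypoxic monoculture and 26.3 and 35.3 in hypoxic co-culture, a shift of -46.7 points (SE 8.29, adjusted p = 0.0128, limma). Mrpl37 rose by 18.98 points (SE 4.19, adjusted p = 0.0234). In co-culture 2 were higher and 1 lower.

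Most regions at cytosolic translation genes were not called. Of 20 regions at ribosomal protein genes, 4 were called higher in co-culture (at Rpl37, Rpl22, Rplp2 and Rpl10), where 5.46% of all regions and 8.49% of members were, with a median shift of 12.4 points against 5.79 over all members. In hypoxia 1 was called higher, Rps19 (32.6 points, SE 7.60, adjusted p = 0.0275, limma), and 1 lower, Rps21. Rps21 ranked at 96.2 and 94.5 in normoxic monoculture, 94.2 and 95.0 in normoxic co-culture, 84.1 and 85.8 in hypoxic monoculture and 86.9 and 92.7 in hypoxic co-culture and shifted by -7.55 points (SE 1.70, adjusted p = 0.0243), but by 12.9 with fold enrichment. Of 27 regions at translation factors, 2 were called higher in co-culture and 1 in hypoxia, near the background. Eif3d, a subunit of initiation factor 3, ranked at 30.6 and 23.5 in normoxic monoculture, 4.38 and 14.3 in hypoxic monoculture, 66.1 and 51.7 in normoxic co-culture and 58.4 and 72.1 in hypoxic co-culture and rose by 43.9 points (SE 7.96, adjusted p = 0.0223). Eif5a, an elongation factor, ranked at 29.3 and 22.9 in normoxic monoculture, 12.8 and 32.1 in normoxic co-culture, 57.3 and 45.9 in hypoxic monoculture and 85.8 and 85.1 in hypoxic co-culture and rose by 44.3 points in hypoxia (SE 8.35, adjusted p = 0.0147). Ribosomal protein genes have many processed pseudogenes, so reads may be shared between copies.

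Of 12 proteasome regions 1 was called, at Psmd1, higher in co-culture by 25.2 points (SE 7.09, adjusted p = 0.047, limma), near the 8.49% of members called higher there. Of 9 spliceosome regions 2 were called, both lower in hypoxia, where 6.29% of all regions were. Neither call held with fold enrichment, where Srsf6 shifted by -7.76 points (adjusted p = 0.744, limma) and Srsf11 by -14.6 (adjusted p = 0.461). Srsf11 shifted by -38.9 points (SE 9.87, adjusted p = 0.0358) and Srsf6 by -23.2 (SE 6.64, adjusted p = 0.0496). Both encode serine and arginine-rich splicing factors. Their hypoxic libraries ranked below their normoxic ones without overlap.

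Both members described here at microglial surface genes ranked low. Ptprc ranked between 3.99 and 28.1 over the 8 libraries, and Fcgr2b, an Fc receptor, between 2.64 and 39.0. Ptprc has 2 listed starts at its member, with 2 and 4 CpGs in the 250 bases before them. Neither was called in either contrast, and Stat3 was the only called member among the 5 transcription factors. Among interferon and antigen presentation genes, Jak1, a cytokine receptor kinase, ranked at 82.2 to 96.2, and the related kinase Tyk2 at 34.2 to 89.2 with all hypoxic libraries above all normoxic ones and an adjusted p of 0.056. The region of Jun, the AP-1 subunit, and its antisense gene Junos ranked at 87.0 to 96.7.

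The steadiest members of the middle of the ranking were at F3, tissue factor, with ranks of 30.9 to 42.9, and at Rpl21, Toe1 with Mutyh, Plekhs1 and Nupr1l with Zbed5. At Plekhs1, which ranked from 34.3 to 49.5, every hypoxic library still lay below every normoxic one, with a shift of -10.8 points and an adjusted p of 0.337 by limma. Another 4 genes often used as references were at members, namely Gusb, B2m, Hprt and Ppia. Hprt ranked from 10.9 to 74.9 and B2m from 12.7 to 65.5, with overlapping groups. Gusb ranked at 74.9 and 76.3 in normoxic monoculture, 66.4 and 64.6 in normoxic co-culture, 56.6 and 42.8 in hypoxic monoculture and 64.1 and 56.6 in hypoxic co-culture, with every hypoxic library below every normoxic one and a shift of -15.5 points (adjusted p = 0.165, limma). None of these 3 was called. Over all members the rank range across the 8 libraries had a median of 39.3 points and the residual SD of the fit a median of 9.24 points.

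Peaks at members were narrowest in normoxic monoculture. The median width of the best peak was 541 and 650 bp there, 814 and 821 bp in hypoxic monoculture, 792 and 771 bp in normoxic co-culture and 800 and 710 bp in hypoxic co-culture. Hypoxia was 97.8 bp wider on average (exact permutation p = 0.222) and co-culture 61.8 bp (p = 0.389), with an interaction of -248.5 bp (p = 0.167). None of these passed the threshold. The 2 normoxic monoculture libraries also had the fewest fragments at member summits, and the part of depth in the width was not tested.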

How the data were processed

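ATAC-seq peaks of 8 libraries were used. Per the submitters' processing notes, reads were processed with Trimmomatic 0.36, HISAT2 2.1.0, Picard, SAMtools and deepTools on mm10, and peaks came from MACS2 2.1.1.2. Each deposited list gives per peak a score, a fold enrichment at the summit (ratio), −log10 p, −log10 q and the summit's offset. These are the authors' values. No peak was filtered here. Peaks on chromosomes 1 to 19 and X were merged, and gene ends came from RefSeq on GRCm38.p6. The best −log10 p of each region was ranked within its library among the 6324 regions open in all 8 lists. Only the order of values was used, so counting depth still affects it. limma 3.58.1 (R 4.3.3) compared group means with a mean-variance trend and Benjamini-Hochberg adjustment over 6324 regions at 0.05. Medians per library were compared by exact permutation within levels of the other factor, with numpy 2.4.6, scipy 1.17.1 and pandas 2.3.3 in Python 3.11.15. Summit and background fragments were derived from the deposited fold enrichment and −log10 p.

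Named were the 10 members with the highest lowest within-list percentile, the 6 largest called shifts without overlap per contrast and direction, the 5 steadiest in mid-ranking, up to 3 top and 3 called members of each of 19 lists, and 10 preset genes. The members and lists were chosen with earlier results of these data known. Where p-values are given, the replicates are the 2 samples per group that the labels call biological. The fit was tested on simulated data for oxygen, with 200 of 6324 regions, all from mid-ranking, shifted by 40 points. It recovered 137 (68.5%) with 0 in the wrong direction and 8 false calls. Noise was drawn independently for each region and library, without effects shared across a library, so these numbers need not hold for the real data. Some members named by this rule are not reported here.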

Additional observations from a re-analysis of the deposited data

How the results depend on the processing

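With 2 libraries per group, counts of called members moved widely. Called members kept their sign in the fits that leave out 1 library, but not in every other setting. The fits that leave out 1 library share all their libraries with the main fit, so a kept sign was largely set in advance there. Leaving out 1 library at a time gave 0 to 369 members higher and 0 to 389 lower in hypoxia, 0 to 565 higher and 0 to 117 lower in co-culture, and 0 to 14 and 0 to 55 for the interaction. The median member rank then shifted by -2.26 to -0.233 points in hypoxia and 8.86 to 10.9 in co-culture. Fold enrichment in place of −log10 p gave 0 calls in every direction by limma (618 members at an unadjusted p below 0.05 for oxygen and 506 for culture). It also turned the oxygen shift of the median member rank to 0.684 points and that of Rps21 to 12.9. Percentiles within whole lists gave 201 and 48 calls for oxygen and 469 and 12 for culture. They turned the oxygen shift of the median to 4.70 and the interaction to -11.3. Normal scores gave 310 higher and 390 lower in hypoxia, and 533 higher and 121 lower in co-culture. Quantile-normalised log2 values gave 327 and 404, and 564 and 125. Ranks among the members alone, an alternative chosen after seeing the data, gave 270 higher and 319 lower in hypoxia, and 51 higher and 96 lower in co-culture. Lists cut to equal numbers of peaks left 2165 members. The cause of these changes was not tested.

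Replicate numbers showed little sign of pairing: the correlation of replicate differences between groups ran from -0.0206 to 0.190, with 1 of 6 above 0.1. The highest was between normoxic and hypoxic co-culture. Low correlations of ranks cannot show that replicates were prepared apart. With the replicate block, calls were 194 and 285 for oxygen, 313 and 74 for culture and 0 for the interaction. Of 49 shifts of named members, 47 stayed past the threshold under the block. Depth was lowest in normoxic monoculture, with medians of 26 and 27 fragments at member summits.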
